A study of Mus musculus with 15 samples.

Results

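The 9 genes described here encode receptors by which B cells find their place in lymphoid tissue: Ccr6, Ccr7, Ccr10, Cxcr4, Cxcr5, Gpr183, S1pr1, S1pr4 and Cnr2. They were chosen by name from the 54838 genes of a deposited count table, and all 9 were present and passed the filter on low counts. The table holds 15 RNA-seq libraries of B cells from the spleens of wild-type (WT) male mice aged 3 months, all taken 9 days after immunisation with sheep red blood cells (SRBC), and each group has 3 libraries lettered A, B and C. Naive B cells and germinal centre (GC) B cells were sorted, after magnetic enrichment for B220, and are taken here as uncultured from their labels. The other 9 libraries came from naive B cells held for 5 days in embryonic stem cell medium: 3 titled CD40 (80 ng/ml mouse IL-4 with 5 µg/ml antibody to CD40), 3 titled CpG (2 µM of the oligonucleotide) and 3 titled LPS (25 µg/ml lipopolysaccharide). These 9 are called activated below. Whether CpG and LPS cultures received IL-4 too cannot be read from the labels, which name no sorting gates beyond B220. Nor do they tie the letters to animals or say whether cells were pooled, so each p-value measures only the spread between libraries, which may be technical.

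All of these receptors are seven-pass membrane proteins that couple to heterotrimeric G proteins and steer cells along gradients of chemokine or lipid. In the spleen, CXCR5 draws B cells to follicles and CCR7 draws them to the T cell zone, while CXCR4 holds dividing GC cells in the dark zone. GPR183 (EBI2) follows oxysterols to the follicle edge, S1PR1 reads sphingosine 1-phosphate (S1P) for exit into blood, and CNR2 binds endocannabinoids.

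Some properties of the libraries bear on these genes. Naive B had the fewest genes detected of the 15 libraries (11523), naive A had 13920 and naive C 18866, while the GC and activated libraries had 16314 to 19320. The number of genes with 1 to 20 counts was 816 in naive A and 606 in naive B, against 5938 in naive C and 3267 to 6253 in the others, so a 0 in naive A or B carries less weight than the same value in naive C. Haemoglobin and other erythroid markers summed to 29.2 CPM in naive A, 298 in naive B and 3.29 in naive C, to at most 7.41 in GC and at most 0.929 in activated libraries, and 7 neutrophil markers to 7.25, 49.8 and 0.208 CPM in the naive libraries. The part of these libraries' condition in the results was not tested, and values are given without naive B, or against naive C alone, where a call changed. As labelled, naive libraries had the highest sums of 8 follicular markers (13164 to 15124 CPM, against 5143 to 5572 in GC and 3095 to 4835 in activated libraries). GC libraries had the highest sums of 8 GC markers (2836 to 3127 CPM, against 82.6 to 132 in naive and 526 to 1106 in activated libraries). Among 8 T cell markers, the CD3 genes Cd3d, Cd3e and Cd3g were at most 3.47 CPM in naive and at most 0.600 in GC libraries, and Lck was the highest. In bulk RNA, fewer cells that express a gene and less RNA per cell cannot be told apart. Among the activated libraries the letter, rather than the titled stimulus, set libraries apart, so activated cells were compared with other groups as 3 sums, each of the CD40, CpG and LPS libraries of 1 letter. Under all 3 titles Fcer2a, 1 of the 8 follicular markers, was at 889 to 980 CPM in letter A, 181 to 183 in B and 150 to 159 in C. The labels do not say whether stimulus and letter could have been exchanged in the titles of these 9 libraries, and this was not tested. If they were, each difference between letters below would be one between stimuli, each difference between stimuli one between replicates, and each sum would hold the 3 replicates of 1 stimulus.

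Promoter sequence was matched for 5 of the 9 genes (7 start sites) in RefSeq's promoter table on GRCm38.p6. The windows below are the 250 bases before the start on the gene's own strand, and are shown because each holds 1 of the 4 short motifs searched on both strands. Capitals mark the match. In the Ccr6 window (chr17:8235793-8236042, plus strand) and the first Cnr2 window (chr4:135894939-135895188, plus strand) it is the octamer core TTTGCAT, the site type bound by OCT factors of B cells. In the S1pr4 window (chr10:81500138-81500387, minus strand) and the Cxcr4 window (chr1:128592300-128592549, minus strand) it is CACCC, the core bound by KLF factors, which in S1pr4 lies on the other strand as GGGTG.
Ccr6: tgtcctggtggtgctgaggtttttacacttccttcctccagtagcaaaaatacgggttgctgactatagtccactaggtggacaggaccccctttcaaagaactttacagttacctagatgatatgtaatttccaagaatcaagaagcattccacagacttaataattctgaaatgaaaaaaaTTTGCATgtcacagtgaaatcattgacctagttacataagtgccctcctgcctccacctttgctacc
Cnr2: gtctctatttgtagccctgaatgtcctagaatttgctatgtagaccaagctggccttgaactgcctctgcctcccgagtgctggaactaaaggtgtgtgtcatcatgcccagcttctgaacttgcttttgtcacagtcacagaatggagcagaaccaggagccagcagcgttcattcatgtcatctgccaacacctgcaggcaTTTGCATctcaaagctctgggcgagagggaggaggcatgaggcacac
S1pr4: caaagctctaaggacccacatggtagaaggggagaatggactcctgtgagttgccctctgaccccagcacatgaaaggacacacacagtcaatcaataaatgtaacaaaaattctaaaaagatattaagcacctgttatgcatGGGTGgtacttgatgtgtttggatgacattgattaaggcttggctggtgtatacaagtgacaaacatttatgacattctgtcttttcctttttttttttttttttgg
Cxcr4: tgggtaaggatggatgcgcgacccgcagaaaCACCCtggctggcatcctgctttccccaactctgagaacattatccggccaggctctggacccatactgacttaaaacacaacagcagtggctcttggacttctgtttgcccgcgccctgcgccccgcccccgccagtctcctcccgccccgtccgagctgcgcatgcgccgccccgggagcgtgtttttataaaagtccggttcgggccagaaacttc

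Over all 32851 windows of this length in the table, TTTGCAT or its complement was found in 4.12% and CACCC in 52.0%, so a CACCC match sets a window little apart from others. The partial NF-kB site GGGAC, present in 44.8% of windows, was found in the second Cnr2 window (chr4:135911430-135911679), and the forkhead core GTAAACA, present in 3.17%, in none of the 7. The Gpr183 window and the second Ccr6 window held none of the 4 motifs. A match of letters is not a measured site.

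Between naive and GC cells, 6 of the 9 receptor genes were lower in GC cells (Ccr6, Ccr7, Gpr183, S1pr1, S1pr4 and Cnr2), 1 was higher (Ccr10), and Cxcr4 and Cxcr5 were not called. Of the 17144 genes tested in that comparison 16.5% were called lower and 17.9% higher by edgeR's quasi-likelihood test, at a Benjamini-Hochberg adjusted p under 0.05. The median log2 fold change was -3.05 over the 9 genes, also with Ccr10 at its lower bound, and 0.00 over all genes tested. Activated cells, compared with naive as letter sums, also had 6 of the 9 lower (Ccr6, Ccr7, Cxcr4, S1pr1, S1pr4 and Cnr2) and 1 higher (Ccr10), where 12.5% of 16029 genes were lower and 17.9% higher. There the medians were -1.66 over the 9 genes and 0.19 over all genes. Both comparisons use the same naive libraries, so their directions are not independent of each other.

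**Figure D1:**
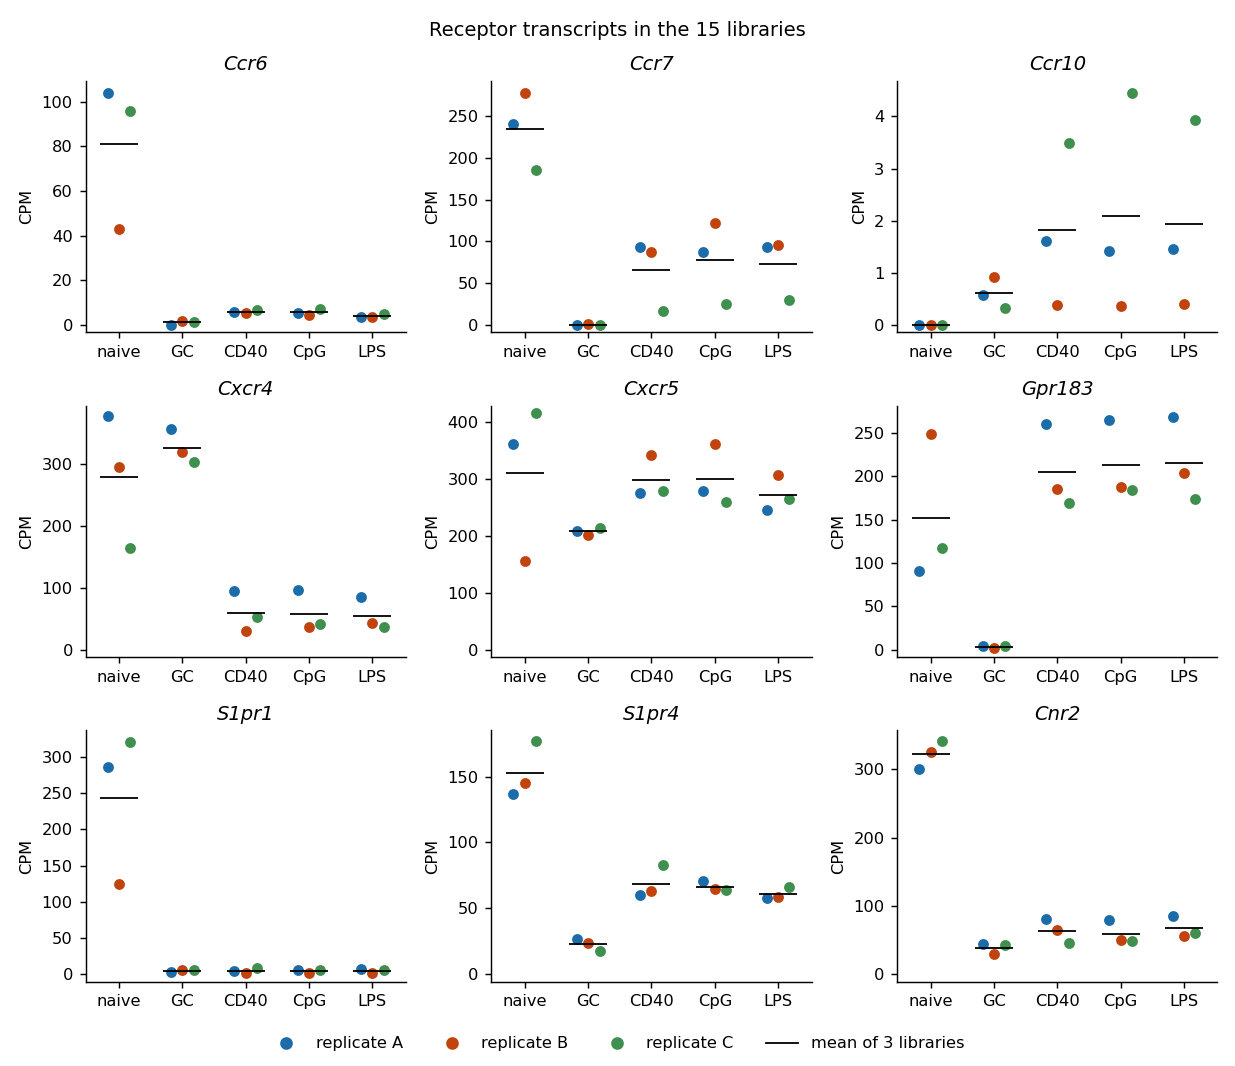
CPM (counts scaled to a common TMM-adjusted library size) of each receptor gene in the 15 libraries, by group on the horizontal axis. Points are libraries coloured by replicate letter, and lines are means of 3 libraries. Ccr7 and Gpr183 fall to 0.380 and 3.44 CPM on average in GC cells, while Cxcr4 stays above 302 CPM in every GC library.

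Levels of different genes were compared per kilobase of exon (FPKM). In naive cells the order of mean FPKM was Cxcr4 (154), Ccr7 (119), Cxcr5 (93.4), Cnr2 (81.0), S1pr1 (80.0), S1pr4 (64.1), Gpr183 (52.7) and Ccr6 (34.9), and every neighbouring pair in that order overlapped between libraries. Ccr10 was at 0. In GC cells the order was far steeper: Cxcr4 stood at 180 FPKM (lowest library 167), Cxcr5 at 62.4, Cnr2 at 9.80 and S1pr4 at 9.52, and the other 5 genes at 0.192 to 1.57. Cxcr4 stood apart from Cxcr5 and Cxcr5 from Cnr2, whereas Cnr2 and S1pr4 overlapped, as did each neighbouring pair among the lowest 5. Activated cells were led by Cxcr5 (87.1 FPKM) and Gpr183 (73.0), then Ccr7 (36.5), Cxcr4 (31.7) and S1pr4 (27.4), each of these 5 overlapping with its neighbours among them, followed by Cnr2 (16.0), which overlapped with neither neighbour, and by Ccr6 (2.23), S1pr1 (1.58) and Ccr10 (1.13).

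Ccr7 (ENSMUSG00000037944, GRCm38 chr11:99144196-99155077, minus strand), the receptor for the T zone chemokines CCL19 and CCL21, was nearly absent from GC cells. Naive A, B and C had 241, 278 and 186 CPM of it, and GC A, B and C had 0.191, 0.818 and 0.132 CPM. Every GC library lay far below every naive one, and the GC values rest on 6, 30 and 4 counts. The log2 fold change was -9.20 (SE 1.05, edgeR adjusted p = 2.87e-05). In activated cells Ccr7 split by letter: CD40, CpG and LPS libraries had 93.8, 87.8 and 92.7 CPM in A, 87.0, 122 and 96.0 in letter B, and 16.2, 24.5 and 30.2 in C. All 9 lay below every naive library and above every GC library. Against naive cells the log2 fold change was -1.66 (SE 0.56), with an edgeR adjusted p of 0.0499 that only just passed. That call was lost under 9 of 14 alternatives, among them each omission of 1 naive library or 1 letter (edgeR adjusted p 0.0568 to 0.135). It was also lost against naive C alone, where the change was -1.19. With the letter as a block the change was -1.89 (edgeR adjusted p = 0.0126). That block also pairs naive with activated libraries, whose same-letter deviations did not go together (correlations -0.0237 to 0.0713).

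Cxcr5 (ENSMUSG00000047880, GRCm38 chr9:44511787-44561877, minus strand), the receptor for the follicular chemokine CXCL13, was abundant in all 15 libraries (156 to 416 CPM). Naive libraries had 362, 156 and 416 CPM in A, B and C, GC libraries 209, 201 and 214 CPM, and activated libraries 245 to 361 CPM (median 279). Naive B lay below all other libraries and the other naive libraries above all GC libraries, so the groups overlapped through 1 library. GC minus naive was -0.58 on the log2 scale (SE 0.26, edgeR adjusted p = 0.105). Without naive B it was -0.90 and was called (edgeR adjusted p = 0.000452), and with naive C as the sole naive library it was -1.0 (edgeR adjusted p = 0.00172), with adjusted p from 0.000452 to 0.516 over 13 alternatives. Activated minus naive was -0.05 (95% interval -0.70 to 0.61, edgeR adjusted p = 0.927). Cxcr5 shares 110 exon bases with Bcl9l on the opposite strand, and how the authors' counting used strand is not given in the sources used here.

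Cxcr4 (ENSMUSG00000045382, GRCm38 chr1:128588199-128592293, minus strand), the receptor for CXCL12, was high in naive and GC cells and low after culture. Naive libraries had 376, 295 and 164 CPM in A, B and C, and GC libraries 355, 319 and 303 CPM, within the naive range. GC minus naive was 0.23 on the log2 scale (95% interval -0.81 to 1.26, edgeR adjusted p = 0.763), and Cxcr4 had the highest mean level per length of the 9 in both groups. In activated cells the CD40, CpG and LPS libraries had 94.2, 95.9 and 85.5 CPM in A, 29.9, 36.5 and 43.5 in letter B, and 52.6, 41.4 and 35.7 in C. All 9 lay below every naive and GC library. The log2 fold change was -2.25 against naive (SE 0.39, edgeR adjusted p = 0.0024) and -2.47 against GC (SE 0.40, edgeR adjusted p = 0.00161). Against naive C alone it was -1.36 and not called (edgeR adjusted p = 0.0752, with 5.55e-06 to 0.0752 over 14 alternatives).

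Gpr183 (ENSMUSG00000051212, GRCm38 chr14:121952551-121965195, minus strand), the oxysterol receptor EBI2, was low in GC cells and high in activated ones. Naive A, B and C had 90.5, 248 and 118 CPM, and GC A, B and C had 4.26, 2.24 and 3.82 CPM. The groups did not overlap, and naive B was the high naive library. GC minus naive was -5.47 on the log2 scale (SE 0.41, edgeR adjusted p = 2.39e-07). CD40, CpG and LPS libraries had 260, 265 and 268 CPM in letter A, 185, 188 and 203 in letter B, and 169, 184 and 174 in C. They lay above naive A and C and on both sides of naive B, with a log2 fold change from naive of 0.51 (95% interval -0.32 to 1.34, edgeR adjusted p = 0.342). Without naive B it was 1.16 and was called (edgeR adjusted p = 0.0071), and over 14 alternatives the adjusted p ran from 0.0071 to 0.656. Gpr183 overlaps Ubac2 on the opposite strand, without sharing exon bases.

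A ratio of 2 receptors within a library does not depend on the scaling of that library. The log2 ratio of Cxcr4 to Cxcr5 counts was 0.06, 0.92 and -1.34 in naive A, B and C, 0.77, 0.67 and 0.50 in GC, and between -3.52 and -1.52 in the 9 activated libraries. Cxcr4 counts thus exceeded Cxcr5 counts in all GC libraries and in naive A and B, and fell below them in naive C and in every activated library. For Ccr7 to Cxcr5 the log2 ratio was -0.59, 0.84 and -1.16 in naive, -10.10, -7.94 and -10.67 in GC, and -4.11 to -1.40 in activated libraries. For Gpr183 to Cxcr5 the mean log2 ratio was -1.05 ± 1.49 (SD, n = 3) in naive, -5.97 ± 0.46 in GC and -0.47 ± 0.42 in activated letters. Of 9 comparisons of these ratios, 7 had groups that did not overlap, each with an exact two-sided permutation p of 0.1, the smallest that 3 against 3 allows (0.129 after Benjamini-Hochberg adjustment over the 9). The other comparisons were Cxcr4 to Cxcr5 in GC against naive (exact p = 0.4) and Gpr183 to Cxcr5 in activated against naive (exact p = 0.6). These ratios were chosen after the data had been seen.

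**Figure D2:**
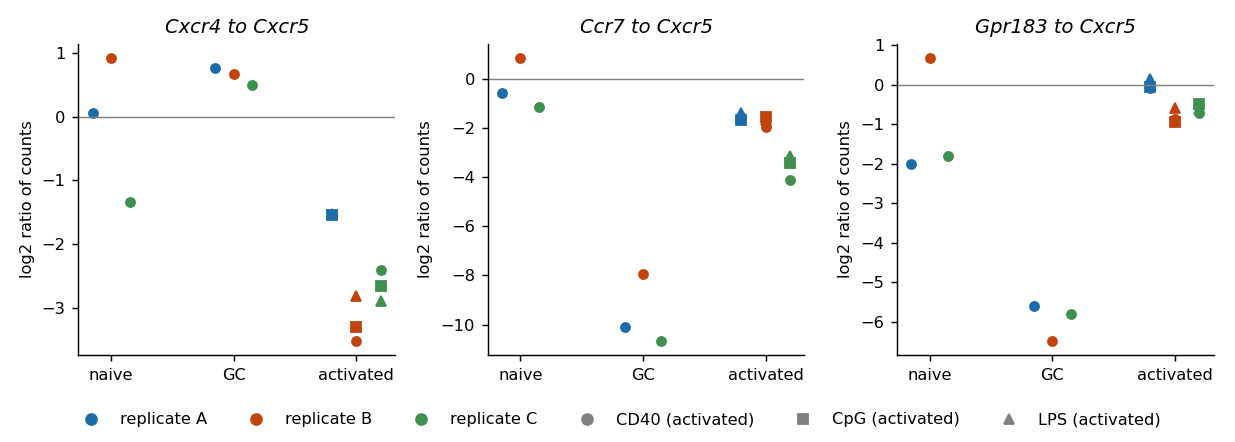
Log2 ratio of the counts of Cxcr4, Ccr7 and Gpr183 to those of Cxcr5 in each library, by group on the horizontal axis, with points coloured by replicate letter and shaped by titled stimulus. GC libraries have the lowest Ccr7 and Gpr183 ratios, and activated libraries the lowest Cxcr4 ratios, from -3.52 to -1.52.

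S1pr1 (ENSMUSG00000045092, GRCm38 chr3:115710433-115715072, minus strand), the main egress receptor for S1P, was low in both GC and activated cells. Naive A, B and C had 286, 124 and 321 CPM, and GC A, B and C had 3.69, 5.35 and 5.34 CPM. Activated libraries had 5.09, 6.24 and 6.86 CPM in letter A (CD40, CpG and LPS), 1.15, 2.00 and 1.95 in letter B, and 8.05, 5.82 and 6.27 in C. Naive B, the lowest naive library, lay far above every GC and activated library, and GC values lay inside the activated range. The log2 fold change from naive was -5.67 in GC (SE 0.76, edgeR adjusted p = 9.67e-05) and -5.62 in activated cells (SE 0.59, edgeR adjusted p = 0.000159). Activated minus GC was 0.04, with a 95% interval of -1.08 to 1.17 (edgeR adjusted p = 0.971), and differences of about 2-fold either way lie within it.

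S1pr4 (ENSMUSG00000044199, GRCm38 chr10:81497747-81500132, minus strand), a second S1P receptor found mainly on leukocytes, fell less. Libraries naive A, B and C had 137, 145 and 177 CPM, GC A, B and C had 26.9, 23.4 and 17.9 CPM, and activated libraries had 57.8 to 83.0 CPM (median 63.6). The 3 kinds of cell did not overlap and stood in that order: naive, activated, GC. The log2 fold change from naive was -2.75 in GC (SE 0.18, edgeR adjusted p = 5.21e-08) and -1.18 in activated cells (SE 0.18, edgeR adjusted p = 0.000971), and activated minus GC was 1.57 (SE 0.18, edgeR adjusted p = 0.000242). S1pr4 had the smallest standard error of the 9 in each of these comparisons, and its calls in the 3 comparisons were kept under every alternative run.

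Ccr6 (ENSMUSG00000040899, GRCm38 chr17:8236043-8257141, plus strand), the receptor for CCL20, fell in both. Naive A, B and C had 104, 43.1 and 95.7 CPM, GC A, B and C had 0.0636, 1.80 and 1.45 CPM, and activated libraries had 3.49 to 7.12 CPM. No group overlapped with another, and GC A was the lowest library with 2 counts. The log2 fold change from naive was -6.18 in GC (SE 0.75, edgeR adjusted p = 2.44e-05) and -3.92 in activated cells (SE 0.76, edgeR adjusted p = 0.00483). Activated minus GC was 2.26 (95% interval 0.59 to 3.94) and just missed the threshold (edgeR adjusted p = 0.053). Alternatives gave an adjusted p of 0.00856 to 0.156 for it, and 4 of 13 called it, among them the fit without GC A (1.72, edgeR adjusted p = 0.0217).

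Ccr10 (ENSMUSG00000044052, GRCm38 chr11:101172997-101175443, minus strand), which binds CCL27 and CCL28 and is known on antibody-secreting cells, was the only gene of the 9 with calls above naive in both comparisons. It had 0 counts in all 3 naive libraries, 18, 34 and 10 counts in GC A, B and C, and 10 to 144 counts in activated libraries. In CPM the GC libraries had 0.573, 0.927 and 0.329, and the CD40, CpG and LPS libraries had 1.61, 1.42 and 1.45 in letter A, 0.382, 0.370 and 0.405 in letter B, and 3.48, 4.46 and 3.94 in C. Against a floor of 3 counts over the naive group, Ccr10 was at least 19.3-fold higher in GC and at least 61.5-fold higher in activated cells. Against naive C alone these bounds were at least 5.86-fold and at least 18.7-fold. The edgeR adjusted p was 0.00644 in GC and 0.00836 in activated cells. The GC call was lost with the 6 libraries compared fitted alone (edgeR adjusted p = 0.0514) and against naive C alone (edgeR adjusted p = 0.0841), with 0.000137 to 0.0841 over 13 alternatives. Bounds cover counting error only, and most low counts were even numbers (73.5% to 83.5% of genes with 1 to 20 counts), so treating each count as 1 molecule understates that error. Ccr10 overlaps Cntnap1, a gene of the opposite strand, without a shared exon base.

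Cnr2 (ENSMUSG00000062585, GRCm38 chr4:135895394-135920207, plus strand), the peripheral cannabinoid receptor CB2, was even across naive libraries and lower elsewhere. Naive A, B and C had 301, 325 and 341 CPM, and GC A, B and C had 45.0, 29.7 and 42.4 CPM. Activated libraries had 81.3, 79.2 and 85.7 CPM in letter A (CD40, CpG and LPS), 64.7, 50.7 and 55.7 in letter B, and 46.0, 48.8 and 59.8 in C. Both kinds of cell lay far below naive cells, and the lowest activated library, CD40 C, lay just above the highest GC library. The log2 fold change from naive was -3.05 in GC (SE 0.27, edgeR adjusted p = 7.21e-07) and -2.29 in activated cells (SE 0.22, edgeR adjusted p = 6.96e-05). Activated minus GC was 0.76 (SE 0.21, edgeR adjusted p = 0.0246). That small difference was not called without GC B (edgeR adjusted p = 0.0935), GC C (0.0561) or letter A (0.0905), and its adjusted p ran from 0.0163 to 0.0935 over 13 alternatives.

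**Figure D3:**
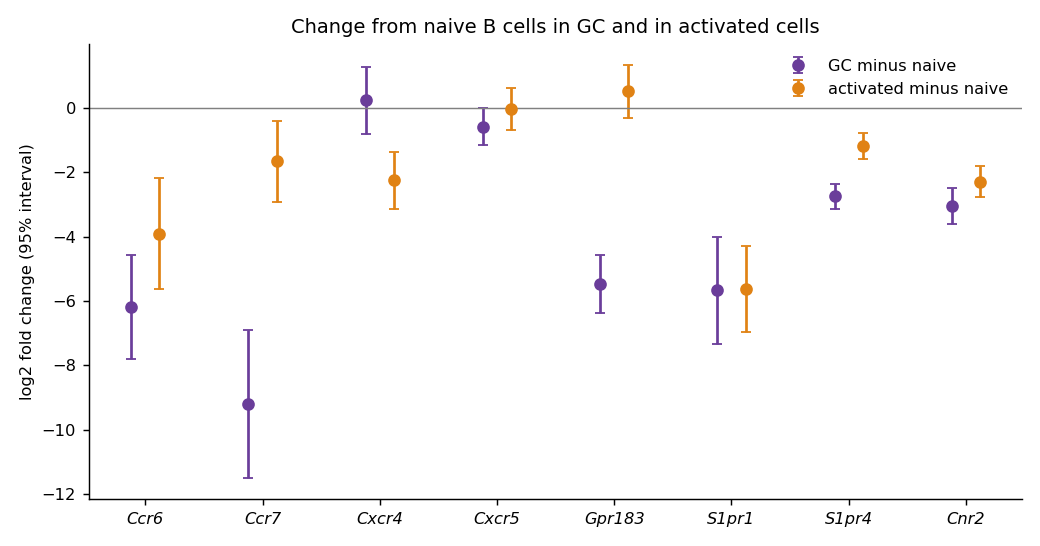
Log2 fold change from naive cells in GC cells and in activated letter sums for 8 of the receptor genes, with 95% intervals from edgeR's quasi-likelihood fit. Ccr10 is left out because its naive libraries held 0 counts. Ccr7 (-9.20 and -1.66) and Gpr183 (-5.47 and 0.51) have the widest gaps between the cell states, and S1pr1 has nearly the same value in both.

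Activated and GC cells were compared in the fit of letter sums, which also holds the naive libraries. Of the 9 receptor genes, 4 were higher in activated cells (Ccr7, Gpr183, S1pr4 and Cnr2) and 1 was lower (Cxcr4), where 14.3% of 16029 genes were higher and 10.6% lower. Ccr7 differed most, by 7.55 on the log2 scale (SE 0.77, edgeR adjusted p = 0.000167), then Gpr183 by 5.99 (SE 0.47, edgeR adjusted p = 2.55e-05). Ccr10 at 1.73 (edgeR adjusted p = 0.374) and Cxcr5 at 0.53 (edgeR adjusted p = 0.24) were not called. Fitted without the naive libraries, Cxcr5 was called at 0.54 (edgeR adjusted p = 0.01, with 0.01 to 0.486 over 13 alternatives). GC cells thus carried Cxcr4 and Cxcr5 with little Ccr7 or Gpr183, and activated cells carried Cxcr5, Gpr183 and Ccr7 with less Cxcr4.

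Each titled stimulus was also set against naive cells. With each of CD40, CpG and LPS, 5 of the 9 genes were lower (Ccr6, Cxcr4, S1pr1, S1pr4 and Cnr2) and Ccr10 was higher. Over all genes 14.3%, 14.0% and 14.2% were lower with CD40, CpG and LPS, and 19.8%, 19.7% and 19.5% higher. Ccr7 was not called for any of them in this fit (edgeR adjusted p = 0.0703, 0.111 and 0.0919), and was called for each with the letter as a block over the 15 libraries. That block pairs naive with activated libraries, which did not deviate together by letter.

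Between stimuli, with the titles taken as they stand, no receptor gene was called. In the fit of all libraries, 0.0% of the 17144 genes were called by edgeR in each of the 3 pairs, and DESeq2 called 1 gene in each pair. The edgeR fit had 92, 115 and 71 genes (0.537%, 0.671% and 0.414%) at an unadjusted p under 0.05, none of the 9 receptor genes among them. That fit counts the spread between letters as error, so it could hardly call a difference between stimuli. When the 9 activated libraries were fitted with a block for the letter, 0.172% of genes were called in CD40 against CpG, 0.28% in CD40 against LPS and 0.286% in CpG against LPS, again with none of the 9 receptors. With the block, 0, 2 and 1 of the 9 receptor genes had an unadjusted p under 0.05. Over the 15727 genes tested, 6.07%, 9.03% and 6.81% did so. The 2 were Ccr6 and Cxcr5 in CD40 against LPS, and the 1 was Cxcr5 in CpG against LPS. Ccr6 was lowest with LPS in every letter, at 3.49 against 5.68 and 5.29 CPM (CD40 and CpG) in A, 3.57 against 5.22 and 4.47 in letter B, and 4.88 against 6.89 and 7.12 in C. With the block, CD40 minus LPS was 0.58 on the log2 scale for Ccr6 (95% interval 0.06 to 1.10, edgeR adjusted p = 0.472), and CpG minus LPS was 0.49 (95% interval -0.03 to 1.01, edgeR adjusted p = 0.744). Neither passed after adjustment. For Ccr7, whose activated libraries ran from 16.2 to 122 CPM, CD40 minus LPS was -0.31 with the block (95% interval -0.63 to 0.01, edgeR adjusted p = 0.581), and in the fit of all libraries, without the block, its 95% interval was -1.69 to 1.39.

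Between letters, in contrast, many genes were called, receptor genes among them. Between letters A and B, 6 of the 9 were called (5 higher in A, 1 lower), where 29.1% of 15727 genes were called. Between A and C, 5 were called (4 higher in A, 1 lower), against 21.5% of genes, and between B and C, 4 (2 higher in B, 2 lower), against 33.1%. The count for B and C lies close to the share over all genes. The letter held 94.1% of the variance of log2(CPM + 1) among the 9 libraries for Ccr7, 99.1% for Ccr10, 96.8% for Gpr183, 93.3% for S1pr1, 90.6% for Cxcr4, 83.8% for Cnr2 and 80.2% for Cxcr5. It held less for Ccr6 (41.5%, with 55.3% for the stimulus) and S1pr4 (29.1% and 21.6%). What a letter stands for is not given, and only 3 letters were measured, so these shares describe the libraries. The same shares were not computed over all genes, so they are not shown to be particular to the receptors.

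**Figure D4:**
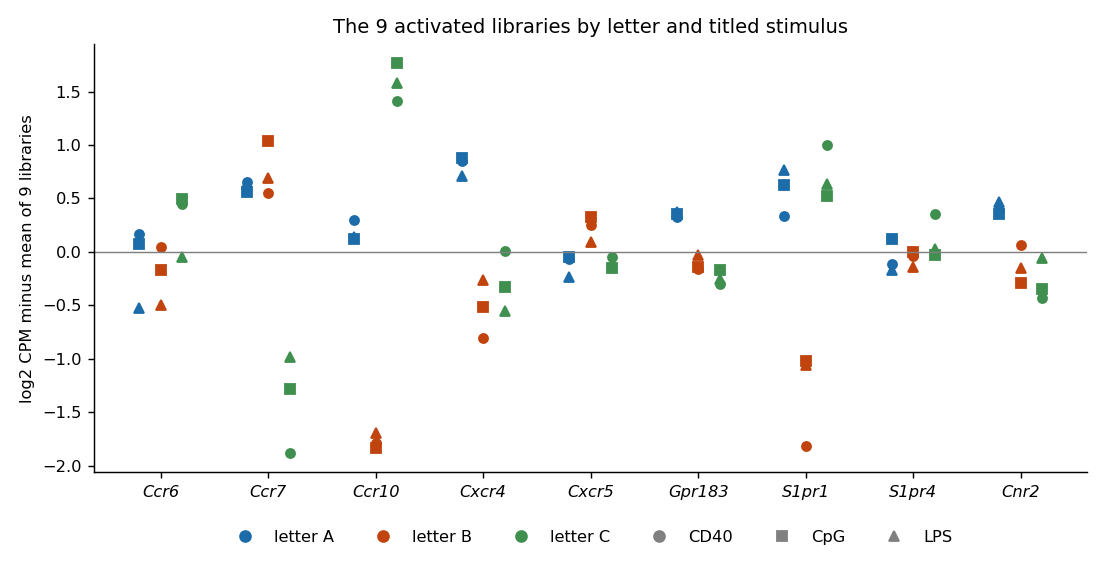
Log2 CPM of each receptor gene in the 9 activated libraries, as the difference from the mean of those 9, with colour for the letter and shape for the titled stimulus. Points of 1 letter lie together for Ccr7, Ccr10, Cxcr4, Gpr183 and S1pr1, while for Ccr6 the LPS triangles are the lowest point of every letter.

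The letters did not shift all receptors alike. Letter C had the least Ccr7, 23.6 ± 7.04 CPM (SD, n = 3 libraries) against 91.4 ± 3.19 in A and 102 ± 18.2 in B (A minus C 1.94, edgeR adjusted p = 0.0002, and B minus C 2.09, edgeR adjusted p = 7.69e-05). Letter C also had the most Ccr10, at 3.96 ± 0.487 CPM against 1.50 ± 0.102 in A and 0.386 ± 0.0182 in B (B minus C -3.35, edgeR adjusted p = 2.48e-06). The A to C difference in Ccr10, -1.40 (edgeR adjusted p = 0.014), was lost without the CpG library of letter C (edgeR adjusted p = 0.064, with 0.00279 to 0.064 over 12 alternatives). Letter B had the least S1pr1, at 1.70 ± 0.477 CPM against 6.06 ± 0.899 and 6.71 ± 1.18 (A minus B 1.84, edgeR adjusted p = 2.41e-05). Letter A had the most Cxcr4, at 91.9 ± 5.59 CPM against 36.7 ± 6.81 in B and 43.2 ± 8.60 in C (A minus B 1.33, edgeR adjusted p = 9.62e-07), and the most Gpr183, at 264 ± 3.85 against 192 ± 9.69 and 176 ± 7.62 (A minus B 0.46, edgeR adjusted p = 2.86e-06). B minus C in Cxcr4 was -0.24 and not called (edgeR adjusted p = 0.211), but was called without the LPS library of B or of C (0.041 and 0.040, with 0.04 to 0.669 over 12 alternatives).

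Markers of antibody-secreting cells moved with the letters too. The 8 plasma cell markers summed to 2875 to 3005 CPM in letter A, 2030 to 2163 in B and 4873 to 6777 in C, against 473 to 528 in naive and 1946 to 2434 in GC libraries. Prdm1, which drives plasma cell formation, averaged 10.2, 3.66 and 71.6 CPM in letters A, B and C, and Jchain, which joins secreted IgM and IgA, 89.8, 17.9 and 2171 CPM. Ccr10 had the same order of letters as both genes (C, A, B), and so did Xbp1, Irf4, Mzb1 and Derl3. Sdc1 did not, and averaged 7.68, 10.2 and 17.2 CPM in letters A, B and C. Tnfrsf17 was at 0 in letters A and B. The 6 dendritic cell markers were highest in letter B (196 to 235 CPM, against 66.3 to 85.4 in A and 62.1 to 81.4 in C), mostly through Flt3. The sum of 7 myeloid markers was highest in letter A (19.3 to 23.7 CPM, against at most 5.51 in the others). It was almost wholly Adgre1 there (19.2 to 23.7 CPM), with Csf1r at 0 in all 9. The 8 marginal zone and B-1 markers summed to 81.6 to 90.6 CPM in A, 156 to 187 in B and 255 to 285 in C. Most of that order came from Zbtb32 (4.02, 52.1 and 87.8 CPM on average) and Plac8 (7.75, 28.3 and 91.8). S1pr3 ran the other way (28.7, 23.4 and 21.6), Dtx1 was highest in B, and Cd1d1 and Cd5 were lowest in B. The 8 GC markers summed to 1016 to 1106 CPM in A against 526 to 703 in B and C, and the 8 follicular markers to 4459 to 4835 in A against 3095 to 3310. The part of these markers in the receptor differences between letters was not tested.

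The other genes of receptor biology were described from 6 lists of 116 genes in all, which were drawn up with earlier results of these data known. For these genes ± is the SD over 3 libraries in naive and in GC cells. In activated cells it is the SD over all 9 libraries, which come from only 3 letters. Among 26 other chemoattractant receptors only 10 passed the filter, with 1 higher and 4 lower in GC cells against naive cells (median log2 fold change -1.87), and 1 higher and 1 lower in activated cells (-1.15). Ackr4, a scavenger of CCL19 and CCL21, reached 41.0 ± 3.86 CPM in GC cells from 0.0462 ± 0.0800 in naive cells (9.75, edgeR adjusted p = 0.000598). Ccr4, a receptor for CCL17 and CCL22, had 0 counts in naive cells and 45.3 ± 21.2 CPM over the 9 activated libraries (edgeR adjusted p = 0.0016). Against a floor of 3 counts over the naive group (0.0317 CPM) it was at least 1430-fold higher. That floor leans on naive A and B, where a 0 carries less weight. The floor from naive C alone is 0.104 CPM, which gives a smaller bound.

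Of 18 further lipid and orphan receptors, 15 were tested in GC cells, with 1 higher and 7 lower (median -1.52), and 14 in activated cells, with 2 higher and 3 lower (0.47). S1pr2, which inhibits migration and confines cells to the GC, went the other way from S1pr1 and S1pr4, at 319 ± 16.0 CPM in GC against 0.919 ± 0.840 in naive cells (8.41, edgeR adjusted p = 4.74e-06). In activated cells it was at 6.29 ± 1.49 CPM (2.79, edgeR adjusted p = 0.0147). Gpr132, a receptor for oxidised fatty acids, was at 1.47 ± 1.04 CPM in GC against 125 ± 3.65 in naive cells (-6.39, edgeR adjusted p = 2.15e-07), and Gpr174, a receptor for lysophosphatidylserine, at 3.36 ± 1.19 against 136 ± 56.5 CPM (-5.33, edgeR adjusted p = 1.8e-06). Gpr174 was also lower in activated cells, at 42.2 ± 13.8 CPM (-1.63, edgeR adjusted p = 0.0105), as were the lysophosphatidic acid receptor genes Lpar6 (-2.13, edgeR adjusted p = 0.00431) and Lpar2 (-1.86, edgeR adjusted p = 0.0274). The adenosine receptor gene Adora2a was lower in GC cells (-5.10, edgeR adjusted p = 1.74e-06).

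Of 16 adhesion molecules, 3 were higher and 8 lower in GC cells (median -1.07), and 4 higher and 6 lower in activated cells (-0.57). Itgb7, an integrin chain of gut homing, stood at 524 ± 128 CPM in naive, 14.5 ± 1.96 in GC and 12.1 ± 3.51 in activated cells (-5.18 and -5.40, edgeR adjusted p = 1.4e-08 and 3.22e-06). The hyaluronan receptor gene Cd44 stood, in the same order, at 32.5 ± 16.4, 102 ± 5.97 and 823 ± 101 CPM (1.65 and 4.72, edgeR adjusted p = 0.000643 and 3.1e-05), and Selplg, the adhesion ligand PSGL-1, at 48.1 ± 22.5, 9.13 ± 4.30 and 527 ± 180 CPM, higher in activated cells (3.50, edgeR adjusted p = 0.000757). Itgb1 (1.86) and Itgb3 (0.81) were higher and Cd38 (-3.04) lower in GC cells (edgeR adjusted p = 6.98e-05, 0.0074 and 8.62e-08). In activated cells Itgb3 was higher (2.24) and Itga4 lower (-2.71, edgeR adjusted p = 0.00023 and 0.0101).

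Of 29 genes of G protein signalling and desensitisation, 4 were higher and 8 lower in GC cells (median -0.12), and 1 higher and 15 lower in activated cells (-0.90). Rgs13, a GTPase activator that damps chemokine receptor signals, stood at 329 ± 19.3 CPM in GC against 0.747 ± 1.12 in naive cells (8.70, edgeR adjusted p = 0.00247), with 0 counts in all 9 activated libraries. Rgs2 was higher in GC cells, at 263 ± 18.5 against 95.9 ± 20.4 CPM (1.46, edgeR adjusted p = 0.0102), and lower in activated cells, at 2.06 ± 0.963 CPM (-5.50, edgeR adjusted p = 5.35e-06). Gna13, the G protein subunit used by S1PR2, was higher in GC cells (0.85, edgeR adjusted p = 0.000267). The receptor kinase gene Grk3 was lower in both (-5.58 and -3.81, edgeR adjusted p = 0.000807 and 0.0221), Arrb1, a beta-arrestin, and Pik3r5 lower in GC cells (-4.90 and -4.57, edgeR adjusted p = 0.000539 and 1.76e-05), and Rgs3 lower in activated cells (-3.05, edgeR adjusted p = 0.00895).

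Among 12 regulators of receptor expression and S1P handling, 1 was higher and 5 lower in GC cells (median -0.59), and 2 higher and 6 lower in activated cells (-1.13). Klf2, a transcription factor known to drive S1pr1 in lymphocytes, stood at 1178 ± 426 CPM in naive, 6.94 ± 2.84 in GC and 98.2 ± 35.5 in activated cells (-7.41 and -3.54, edgeR adjusted p = 7.26e-07 and 0.000291). Among activated letters Klf2 averaged 136, 56.6 and 102 CPM in A, B and C (A minus B 1.26 and A minus C 0.41, edgeR adjusted p = 1.81e-08 and 0.00771). S1pr1 was also lowest in letter B, but A minus C was -0.15 and not called for S1pr1 (edgeR adjusted p = 0.782). Klf2 was higher in activated than in GC cells (3.88, edgeR adjusted p = 0.000233), where S1pr1 was not called (0.04). The part of Klf2 in the S1pr1 levels was not tested. Foxo1, another activator of homing receptor genes, was not called in GC cells (183 ± 15.4 against 223 ± 32.4 CPM, -0.28, edgeR adjusted p = 0.363), and was lower in activated cells (112 ± 25.1 CPM, -0.95, edgeR adjusted p = 0.0052). Cd69, which pulls S1PR1 from the cell surface, was lower in both, at 14.2 ± 0.0799 and 40.2 ± 5.14 against 286 ± 121 CPM (-4.33 and -2.79, edgeR adjusted p = 5.52e-08 and 0.000183). Spns2, an S1P exporter, was lower in both (-5.23 and -5.78, edgeR adjusted p = 1.1e-05 and 1.76e-05), and Sgpl1, the S1P lyase, higher in activated cells (0.82, edgeR adjusted p = 0.0426).

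Of 15 ligands and ligand enzymes 5 were tested, with 1 higher and 1 lower in GC cells (median 1.11) and none called in activated cells (0.82). Daglb, which makes the endocannabinoid 2-AG, was higher in GC cells, at 42.2 ± 5.87 against 9.05 ± 7.86 CPM (2.22, edgeR adjusted p = 0.00152), and Faah, which breaks down anandamide, was lower, at 2.52 ± 0.465 against 37.8 ± 32.1 CPM (-3.90, edgeR adjusted p = 0.00327).

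**Figure D5:**
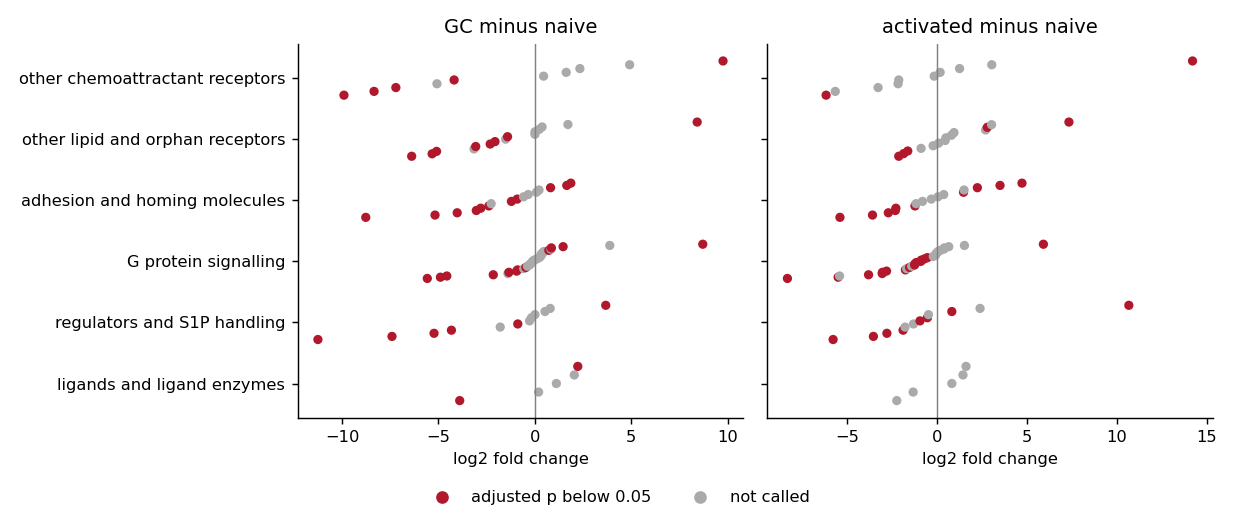
Log2 fold changes of the genes tested in the 6 lists, in GC minus naive cells (left) and activated letter sums minus naive cells (right). Each point is 1 gene, red where the edgeR adjusted p is below 0.05 and grey otherwise. Fitted values of genes with 0 counts in a group, such as Ccr4 in naive cells, depend on the prior count and are not bounds. The red points of the G protein signalling list lie mostly left of 0 in activated cells, 15 of 16.

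For each receptor gene, the genes with the most similar pattern over the 15 libraries were found by Pearson correlation of log2(CPM + 1), as a description without a test. The libraries fall into 3 kinds of cell, so high values are common, and the points share library scaling. The closest were Ino80 (0.991) and Fyco1 (0.973) to Ccr6, Muc3a (0.985) and Bcl2 (0.983) to Ccr7, Creld2 and Hid1 (0.974 each) to Ccr10, and Prkacb (0.965) and Dazap2 (0.957) to Cxcr4. Pi4ka (0.947) and Fam114a1 (0.946) were closest to Cxcr5, Capg and Nrros (0.988 each) to Gpr183, Arhgef18 (0.982) and Leng8 (0.979) to S1pr1, Shisa5 and Tdrd7 (0.981 each) to S1pr4, and Cd55 (0.986) and Gimap1 (0.983) to Cnr2.

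Among the 36 pairs of receptor genes, the correlation over the 15 libraries was highest for Ccr6 and Cnr2 (0.909), S1pr1 and Cnr2 (0.900), Ccr6 and S1pr1 (0.894), Ccr6 and S1pr4 (0.889) and Ccr7 and Gpr183 (0.880), and lowest for Cxcr4 and Gpr183 (-0.648). Within the 9 activated libraries some pairs turned: Ccr6 and Cnr2 to -0.402, and Cxcr4 and Gpr183 to 0.883. Gpr183 and Cnr2 were at 0.894 there and at 0.401 over all 15, and Ccr7 and Ccr10 at -0.869 and -0.204. In the activated libraries these values rest on 3 letters.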

How the data were processed

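The deposited values are raw read counts per gene, which the authors made by aligning reads with STAR 2.7.10a to mm10/GRCm38 and counting with featureCounts 2.0.6, per the submitters' processing notes. Libraries were poly(A)-selected with a directional kit, per the labels. Handling of strand and of reads mapping to several places is not given in the sources used here. Totals ran from 25397624 to 36272197 counts per library, so for all but the rarest receptor transcripts the spread between libraries, not counting error, set the precision. GENCODE M21 (GRCm38) named 54809 of 54838 gene IDs and gave coordinates and exon lengths.

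Library sizes were adjusted with edgeR's TMM factors, low genes removed with filterByExpr, and tests run with edgeR 4.0.16 under R 4.3.3 (glmQLFit, robust, and glmQLFTest, two-sided, no block), with Benjamini-Hochberg adjustment over all genes tested in a comparison and a threshold of 0.05. SE and 95% intervals come from the same fit. Comparisons of naive, GC and single stimuli used 1 fit of all 15 libraries. Activated cells were set against naive or GC cells as 3 letter sums, and letters against one another in the 9 activated libraries. The tests were tried on simulated counts first. A group at 0 counts was given a floor of 3 counts.

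Same-letter libraries deviated together among the 3 stimuli (correlations 0.312 to 0.444), and not between naive, GC and activated cells (-0.0609 to 0.0713), so letters were taken to pair only the activated libraries. Alternatives were other size factors, no or a stricter filter (1 CPM in 3 libraries), DESeq2 1.42.0, only the libraries compared, letter or stimulus as a block, the mean of stimulus groups, and leaving out each library. A comparison against naive C alone was added after the data were seen.

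The 9 receptor genes and all lists were chosen with earlier results of these data known. Named list genes are Klf2, Foxo1, Cd69 and S1pr2, and per list and direction at most the 3 with the largest called change and a mean of at least 10 CPM in a group compared. Of the genes this rule takes, 2 are not reported here. The 2 genes most like each receptor were also named. The 12 marker lists were used for checks. T cell markers (mostly Lck) summed to 57.2 to 74.2 CPM in naive, 163 to 175 in GC and 31.9 to 46.4 in activated libraries, NK markers to at most 26.2, 0.891 and 8.82, myeloid markers to at most 16.6, 2.95 and 23.7, and megakaryocyte markers to at most 11.7, 1.72 and 9.23. Dendritic cell markers (mostly Flt3 and Zbtb46) summed to 6.98 to 7.27, 45.3 to 48.3 and 62.1 to 235 CPM, marginal zone and B-1 markers to 651 to 778, 235 to 260.3 and 81.6 to 285, and stromal markers (mostly Pecam1) to 274 to 357, 37.0 to 45.2 and 8.50 to 25.3.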

Additional observations from a re-analysis of the deposited data

Results flagged for a closer look

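The changes of 5 receptor genes from naive cells differed between GC and activated cells, by edgeR's quasi-likelihood test of activated against GC cells, which is the difference of the 2 changes. Ccr7 differed by 7.55 on the log2 scale (-9.20 in GC and -1.66 in activated cells, edgeR adjusted p = 0.000167), with all 9 activated libraries above all 3 GC libraries. Gpr183 differed by 5.99 (-5.47 and 0.51, edgeR adjusted p = 2.55e-05). S1pr4 differed by 1.57 (-2.75 and -1.18, edgeR adjusted p = 0.000242) and Cnr2 by 0.76 (-3.05 and -2.29, edgeR adjusted p = 0.0246), the latter lost without GC B, GC C or letter A. Cxcr4 differed the other way, by -2.47 (0.23 and -2.25, edgeR adjusted p = 0.00161).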

How the results depend on the processing

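Over all alternatives, the 9 receptors kept direction and call in 113 of 117 values in GC against naive, 108 of 125 in activated against naive and 102 of 116 in activated against GC. For pairs of letters this held in 103, 105 and 106 of 108 values (A against B, A against C, B against C). Reversals were confined to values near 0, and none was called. Activated minus naive Cxcr5 was 0.03 without the filter and 0.02 with the replicate block, and -0.27 to 0.22 leaving out 1 replicate. Activated minus GC S1pr1 was -0.01 with DESeq2's size factors and with DESeq2, -0.20 with the replicate block, and -0.32 to 0.46 leaving out 1 replicate. A minus B S1pr4 was 0.00 in the 6 libraries alone and -0.08 to 0.07 leaving out 1 library, A minus B Ccr6 -0.01 to 0.31, and A minus C Cxcr5 -0.05 to 0.05. Genes called against naive in the 6 libraries alone numbered 3005 (CD40), 3137 (CpG) and 3349 (LPS), where the fit of 15 gave 5849, 5768 and 5779. The mean of stimulus groups called 7348 genes against naive and 6350 against GC, where letter sums called 4885 and 3992, and the 6 columns alone called 7510 against GC. Leaving out 1 replicate gave 2403 to 2840 calls against GC. Between stimuli, where no gene was called, DESeq2 called 1 in each pair, CpG against LPS without the filter 1, and the replicate block over the 9 activated libraries 27, 44 and 45. The replicate block ended no call of a receptor. Ccr10 rests on few counts, 10 to 144 where present. Its 0 in naive A and B comes from libraries with few genes at 1 to 20 counts (816 and 606, against 5938 in naive C). Total counts were not lower there (33871688 and 32603650, against 28155640 in naive C).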
